A study of Homo sapiens with 13 samples.

Results

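The RNA levels of 51 receptor tyrosine kinases and growth factor ligands were followed in 2 small cell lung cancer (SCLC) lines under FHD-286. The 51 genes were taken by symbol, as a list of receptor families and their ligands, from the 56831 genes of the expression tables. They comprise 26 receptors of 12 families and 25 genes of the ligand families, and all 51 were found in both tables. RNA was sequenced from H82 and H146, established SCLC cell lines with the genotype labelled WT. FHD-286 is a small molecule inhibitor of the ATPases SMARCA4 and SMARCA2, the motors of the SWI/SNF chromatin remodelling complex. Untreated H82 cells gave 3 libraries and untreated H146 cells gave 3. H82 cells kept for 14 days in 100 nM FHD-286, with fresh drug every 48 h, gave 3 libraries, and H146 cells treated in the same way gave 4. The labels name no vehicle for the untreated cells and do not say that the libraries of a group came from separate cultures, so that each *p* value measures the spread between these libraries, which may be technical.

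Receptor tyrosine kinases span the cell membrane and carry a kinase inside the cell. Binding of a growth factor brings receptors together, and the phosphorylated tails then recruit adaptors that switch on the RAS to ERK cascade, PI3 kinase and phospholipase C. Ligands such as epidermal growth factor, the neuregulins, the fibroblast growth factors, stem cell factor and the vascular endothelial growth factors are secreted or shed by cells and act on the same or on neighbouring cells. SCLC lines express several of these receptors, among them KIT, RET and FGFR1, alongside neuroendocrine genes.

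The deposited values were TPM, a measure of transcript abundance that is corrected for gene length and brought to a sum of 1000000 in each library, so that the number of reads per library is unknown and no counting interval is given. Of 6 neuroendocrine markers, *SYP*, *CHGA*, *INSM1*, *NCAM1* and *DLL3* were above 10 TPM in all libraries of both lines, whereas *NEUROD1* was at 48.0 to 234 TPM in H82 and at 0.129 to 0.521 TPM in H146. In H82 the median of *SYP* was 202 TPM without and 50.7 TPM with drug, that of *CHGA* 157 and 21.1 TPM and that of *NEUROD1* 231 and 91.1 TPM. The medians of *INSM1* (14.8 and 33.9 TPM), *NCAM1* (53.1 and 69.0 TPM) and *DLL3* (104 and 149 TPM) were higher with drug there. Several libraries stood apart from the rest of their group. Treated H146 libraries 3 and 4 correlated at r = 0.9875 across genes, more closely than either did with treated libraries 1 and 2. A set of 57 genes was at 20 TPM or more in all H146 libraries and under 0.1 TPM in untreated H82, and none of the 51 receptors and ligands is among them. These 57 genes summed to 0.715 to 0.836 TPM in untreated H82 and to 61.0, 346 and 25.1 TPM in treated H82 libraries 1, 2 and 3, against 5787 to 7230 TPM in H146. The choice of the set held the sum low in untreated H82 and high in H146 and made no use of treated H82. The part of these 57 genes in the H82 results was not tested, and *KIT*, *KITLG*, *MET*, *NTF3*, *FGF9* and *FGF14* were all highest in treated H82 library 2. Further receptors and ligands were highest there too, among them *FGFR1* (3.36 TPM), *VEGFB* (96.9 TPM) and *DDR1* (13.7 TPM). The 5 epithelial markers summed to 1.57 to 3.61 TPM in untreated H82 and to 9.17 to 114 TPM in treated H82, and to 2234 to 2404 TPM in untreated and 575 to 647 TPM in treated H146. The 5 fibroblast markers summed to 0.912 to 1.84 TPM without and 7.05 to 33.9 TPM with drug in H82 and to 6.68 to 8.59 TPM without and 16.6 to 32.0 TPM with drug in H146. The mitochondrial share of all TPM in H82 was 22.1% to 24.1% without and 12.3% to 14.9% with drug, against 7.56% to 8.86% and 3.82% to 11.4% in H146. In H82 the number of genes at 1 TPM or more was 21227 to 21772 without and 15554 to 16633 with drug. The part of these shifts in the changes of the receptors and ligands was not tested.

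In H82, 13 of the 25 receptors and ligands tested fell and 4 rose under FHD-286, where 45.5% of all genes tested fell and 13.1% rose. In H146, 7 of the 32 tested fell and 7 rose, where 15.5% of all genes tested fell and 32.5% rose. *FGFR2*, *FGFR3* and *VEGFA* fell in both lines. *INSR*, the insulin receptor, and *FGF12* fell in H82 and rose in H146. The largest losses were *DDR2*, *ALK* and *EGF* in H82 and *RET* and *NTF3* in H146, and the largest gain on the log2(TPM + 1) scale was *VEGFC* in H146, while the largest gain as a ratio of mean TPM among genes that passed the test was *MET* in H82. As these are bulk libraries, fewer cells with a transcript and less of it per cell cannot be told apart.

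These counts come from limma on log2(TPM + 1), fitted in each line over the genes that reached 1 TPM in 3 or more of its libraries, with a two-sided adjusted *p* under 0.05. In H82, 25 of the 51 genes passed this filter and 8 of them did not pass the threshold. Of all 19770 genes tested in H82, 45.5% were lower and 13.1% were higher. *ERBB3*, *EGF*, *MET* and *DDR2* in H82 and *FGF9*, *RET* and *VEGFC* in H146 reached 1 TPM in 1 group alone, so that the filter itself required them to differ. In H146, 32 of the 51 were tested and 18 did not pass the threshold, and of all 19585 genes tested 15.5% were lower and 32.5% higher. The median log2 fold change was -0.60 over the receptors and ligands tested in H82, where it was -0.56 over all genes, and 0.14 in H146, where it was 0.25 over all genes. Rescaling the libraries by the median of ratios moved the median of all genes to -0.14 in H82 and -0.02 in H146, and the calls were then 9 lower and 6 higher in H82 and 10 lower and 3 higher in H146. Treated and untreated libraries did not overlap for 18 of the 25 genes tested in H82, against 67.8% of all genes tested, and for 16 of the 32 in H146, against 52.9%. Without untreated H82 library 1, 2 or 3 the lower calls were 7, 8 and 7 and the higher calls 1, 2 and 1, and without treated H82 library 2 the higher calls were 2. Without any 1 of the untreated H146 libraries the lower calls were 3. Of the 31 calls, 16 held in all alternatives for which they could be fitted. They were *EGF*, *NRG2*, *FGFR3*, *FGF12*, *INSR*, *VEGFA*, *ALK*, *DDR2* and *MET* in H82 and *FGFR3*, *RET*, *NTF3*, *VEGFA*, *INSR*, *PDGFC* and *VEGFC* in H146. Among these, *EGF*, *DDR2* and *MET* in H82 and *RET* and *VEGFC* in H146 reached 1 TPM in 1 group alone, so that holding adds no support for them. With 1 library left out, only 3 fits could be made for each of *EGF*, *DDR2* and *MET* and 4 for *RET*.

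**Figure D1:**
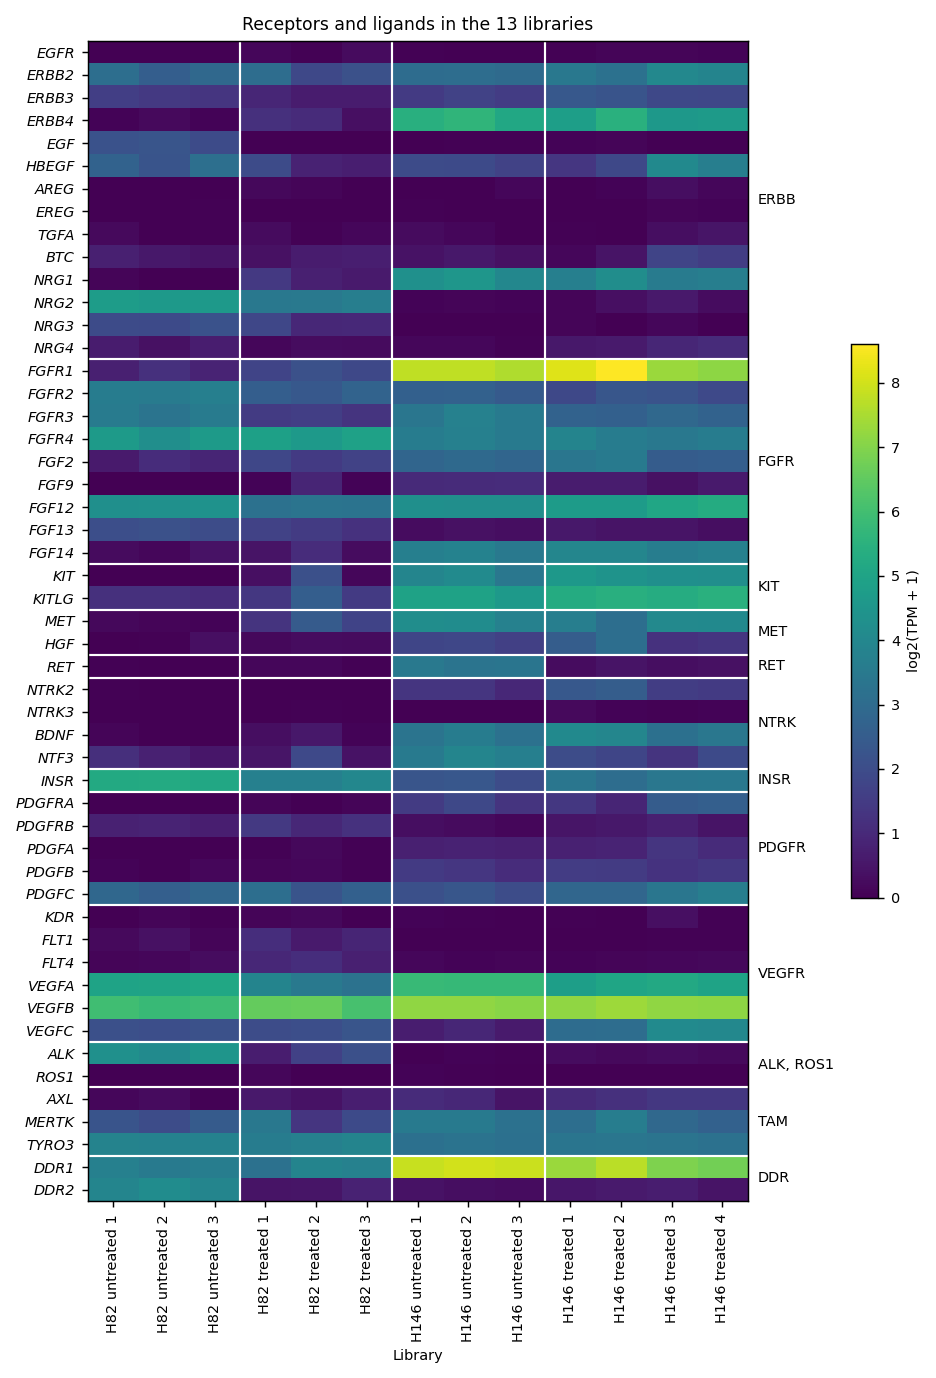
Level of each of the 51 genes (rows, grouped by receptor family) in each of the 13 libraries (columns), coloured by log2(TPM + 1). *NRG2*, *INSR*, *ALK* and *DDR2* were brightest in untreated H82, whereas *FGFR1*, *ERBB4*, *NRG1*, *KIT* and *RET* were high in untreated H146 and low in untreated H82.

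For 6 genes that moved in different ways, chosen after their values were seen, the 250 bases before the RefSeq start are printed here so that the start regions can be read side by side. *INSR* moved in opposite directions in the lines, *DDR2* and *ALK* fell most in H82, *RET* fell most in H146, *VEGFC* rose most in H146 and *MET* rose most in H82, all on the log2(TPM + 1) scale. The sequences are RefSeq's on GRCh38.p14, written 5′ to 3′ on the strand of the gene, and 43 of the 51 genes had an entry that was used. Capitals mark letters searched on both strands, namely the E-box CANNTG, bound by basic helix-loop-helix factors such as NEUROD1, the AP-1 site TGANTCA, the GC box GGGCGG and the TATA box TATAAA.
INSR (chr19:7294415-7294664, minus strand): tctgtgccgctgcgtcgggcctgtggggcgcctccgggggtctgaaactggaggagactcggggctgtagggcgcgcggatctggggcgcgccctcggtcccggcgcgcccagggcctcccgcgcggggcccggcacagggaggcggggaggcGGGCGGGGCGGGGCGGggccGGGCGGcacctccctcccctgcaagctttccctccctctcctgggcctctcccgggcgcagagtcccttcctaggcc
DDR2 (chr1:162630613-162630862, plus strand): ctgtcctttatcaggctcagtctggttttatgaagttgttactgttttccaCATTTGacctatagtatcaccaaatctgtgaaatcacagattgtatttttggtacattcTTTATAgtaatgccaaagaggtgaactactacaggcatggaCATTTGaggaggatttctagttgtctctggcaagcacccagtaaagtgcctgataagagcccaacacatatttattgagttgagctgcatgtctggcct
ALK (chr2:29921587-29921836, minus strand): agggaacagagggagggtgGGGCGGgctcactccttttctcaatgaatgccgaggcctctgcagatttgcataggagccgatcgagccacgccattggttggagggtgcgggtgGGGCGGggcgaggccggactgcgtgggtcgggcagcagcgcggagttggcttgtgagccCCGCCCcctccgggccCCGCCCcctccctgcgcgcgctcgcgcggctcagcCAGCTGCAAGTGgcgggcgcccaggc
RET (chr10:43076819-43077068, plus strand): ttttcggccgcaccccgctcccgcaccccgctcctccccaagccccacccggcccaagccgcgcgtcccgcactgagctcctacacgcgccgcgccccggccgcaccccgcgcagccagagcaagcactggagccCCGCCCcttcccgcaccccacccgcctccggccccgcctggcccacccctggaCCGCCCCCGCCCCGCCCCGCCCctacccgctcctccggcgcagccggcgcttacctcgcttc
VEGFC (chr4:176792923-176793172, minus strand): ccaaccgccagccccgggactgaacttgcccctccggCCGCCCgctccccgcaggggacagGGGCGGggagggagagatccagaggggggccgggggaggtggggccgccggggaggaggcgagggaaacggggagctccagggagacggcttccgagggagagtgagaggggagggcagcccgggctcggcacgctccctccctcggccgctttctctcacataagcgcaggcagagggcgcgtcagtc
MET (chr7:116671946-116672195, plus strand): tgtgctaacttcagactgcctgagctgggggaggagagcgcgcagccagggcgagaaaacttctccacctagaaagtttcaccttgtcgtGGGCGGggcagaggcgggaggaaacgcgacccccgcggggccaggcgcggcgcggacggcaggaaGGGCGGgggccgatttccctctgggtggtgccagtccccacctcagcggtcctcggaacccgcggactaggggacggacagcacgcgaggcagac
The windows end at the start of the gene in GENCODE release 44 for *INSR*, *ALK*, *VEGFC* and *MET*. The window of *RET* ends 5 bases inside the annotated gene, and that of *DDR2* ends 510 bases before it. The window of *ALK* overlaps the annotated gene ENSG00000288553, and the other windows hold no other annotated gene. The E-box letters occurred 2 times in *DDR2* and 2 times in *ALK*, where the matches lie side by side, and were not found in the other 4 windows, whereas 61.8% of the 35116 RefSeq promoters of this length hold them. GC boxes occurred 4 times in *INSR*, 4 in *ALK*, 5 in *RET*, 2 in *VEGFC* and 2 in *MET* and not in *DDR2*, with a share of 42.6% over all promoters. The *DDR2* window alone had TATA letters, which 10.7% of all promoters hold, and none of the 6 windows held the AP-1 letters, which 6.57% of all promoters hold. No match of 1 motif overlapped a match of another in these windows. GC made up 40.0% of the *DDR2* window and 68.4% to 79.6% of the other windows, against a median of 58.0% over all promoters. These matches describe letters only, and binding at them was not measured here.

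The ERBB receptors bind the EGF-like ligands and the neuregulins. *EGFR*, which binds EGF, was at 0 TPM in all untreated H82 libraries and at 0.115, 0.0333 and 0.183 TPM in the treated ones, and in H146 it stayed between 0 and 0.0942 TPM. It was therefore below the filter in both lines. *ERBB2*, the receptor with no known ligand of its own, was at 7.56, 4.90 and 6.49 TPM in untreated and 7.45, 2.68 and 3.35 TPM in treated H82, where the groups overlapped and the test was not passed (log2 fold change -0.49, SE 0.34, adjusted *p* = 0.254). It passed as lower without treated library 1 (log2 fold change -0.85, adjusted *p* = 0.015). *ERBB2* in H146 was at 7.19, 7.46 and 6.81 TPM without and 9.81, 8.15, 15.2 and 13.9 TPM with drug. All treated H146 libraries were above the untreated ones, and the log2 fold change was 0.61 (SE 0.22, adjusted *p* = 0.0457). This call was lost in 6 of 7 fits with 1 library left out, the exception being treated library 2 (highest adjusted *p* 0.126), and with the median of ratios (log2 fold change 0.32, adjusted *p* = 0.193).

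*ERBB3*, which binds neuregulins and signals through its partners, was at 1.99, 1.66 and 1.52 TPM in untreated and at 0.912, 0.583 and 0.593 TPM in treated H82. The groups did not overlap and the log2 fold change was -0.69 (SE 0.19, adjusted *p* = 0.018), a call that was lost without treated library 2 or 3 (highest adjusted *p* 0.0623) and that turned to 0.26 under quantile normalization. In H146 *ERBB3* was at 1.78, 2.24 and 1.89 TPM without and 4.17, 3.72, 2.68 and 2.52 TPM with drug. These groups did not overlap either, but the test was not passed (log2 fold change 0.51, SE 0.20, adjusted *p* = 0.0602), though it was passed without treated library 4 (log2 fold change 0.59, adjusted *p* = 0.048) and with eBayes without trend (adjusted *p* = 0.0432). *ERBB4*, the other neuregulin receptor, was at 41.8, 48.5 and 34.7 TPM in untreated H146 and at 27.1, 43.2, 23.0 and 24.7 TPM in treated H146. Treated library 2 overlapped the untreated range and the log2 fold change was -0.52 (SE 0.23, adjusted *p* = 0.0875). In H82 *ERBB4* was at 0.0589, 0.159 and 0.0629 TPM without and 1.28, 1.08 and 0.274 TPM with drug, with no overlap and below the filter.

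Of the 10 ERBB ligands, 4 were tested in H82 and all 4 fell, where 45.5% of all genes tested were lower, and with the median of ratios *EGF* and *NRG2* alone were still called. In H146 neither of the 2 tested passed the threshold. *EGF*, a ligand of EGFR, was at 3.51, 3.85 and 2.94 TPM in untreated H82 and was listed at 0 in all treated libraries. Its log2 fold change, which depends on the added 1 TPM, was -2.14 (SE 0.18, adjusted *p* = 0.000214). In H146 *EGF* reached at most 0.0869 TPM. *NRG2*, a neuregulin, was at 25.8, 24.1 and 23.8 TPM in untreated H82 and at 9.99, 10.01 and 11.8 TPM in treated H82, a 2.32-fold lower mean (log2 fold change -1.14, SE 0.15, adjusted *p* = 0.000796).

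*HBEGF*, the heparin-binding ligand of EGFR and ERBB4, was at 5.53, 3.69 and 7.73 TPM in untreated and at 2.93, 0.782 and 0.634 TPM in treated H82 (log2 fold change -1.52, SE 0.40, adjusted *p* = 0.0151). The groups did not overlap, and the call was lost without untreated library 1 or 3 (highest adjusted *p* 0.0658), with the median of ratios (log2 fold change -1.17, adjusted *p* = 0.0554) and under quantile normalization (-0.56, adjusted *p* = 0.255). In H146 *HBEGF* split with the libraries that stood apart. It was at 2.91, 2.80 and 2.26 TPM in untreated libraries, 1.57 and 2.61 TPM in treated libraries 1 and 2 and 15.96 and 11.7 TPM in treated libraries 3 and 4, and the test over all 4 was not passed (log2 fold change 0.88, SE 0.63, adjusted *p* = 0.275). *NRG3* in H82 ranged from 2.81 to 3.51 TPM without and 0.958 to 2.52 TPM with drug and fell by 0.77 on the log2 scale (adjusted *p* = 0.048), a call lost without any 1 of the libraries except treated library 1 (highest adjusted *p* 0.181) and with the median of ratios (adjusted *p* = 0.258) and turned to 0.24 by quantile normalization.

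*NRG1*, the neuregulin that binds ERBB3 and ERBB4, was at 0.0846, 0.0229 and 0.0181 TPM in untreated H82 and at 1.70, 0.698 and 0.529 TPM in treated H82. The groups did not overlap and the means differed 23.3-fold, at a level below the filter. In H146 *NRG1* was at 18.97, 21.7 and 14.9 TPM without and 12.3, 17.5, 11.0 and 11.7 TPM with drug, where treated library 2 overlapped the untreated range (log2 fold change -0.47, SE 0.20, adjusted *p* = 0.0766). Without that library *ERBB4* and *NRG1* both passed the threshold in H146, at log2 fold changes of -0.71 and -0.61 (adjusted *p* = 0.00364 and 0.0111). With all libraries kept, both also passed as lower with the median of ratios (log2 fold changes -0.83 and -0.77, adjusted *p* = 0.0219 and 0.0141). The same held under quantile normalization (-0.68 and -0.71, adjusted *p* = 0.0483 and 0.0199). Below the filter in both lines were *AREG*, *EREG*, *TGFA*, *BTC* and *NRG4*, ligands whose highest value in any H82 library was 0.681 TPM (*BTC*) and in any H146 library 2.36 TPM (*BTC*).

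Among the FGF receptors, which bind fibroblast growth factors, *FGFR2* and *FGFR3* fell in both lines. *FGFR3* was at 10.9, 8.88 and 11.1 TPM in untreated and at 1.82, 2.03 and 1.47 TPM in treated H82, a 5.79-fold lower mean (log2 fold change -2.02, SE 0.19, adjusted *p* = 0.000305). The H146 libraries had 9.30, 12.8 and 10.4 TPM of it without and 5.57, 5.25, 6.55 and 5.45 TPM with drug, a 1.90-fold lower mean (log2 fold change -0.81, SE 0.16, adjusted *p* = 0.00407). *FGFR2* was at 11.2, 10.8 and 11.99 TPM in untreated and at 4.93, 4.16 and 5.72 TPM in treated H82 (log2 fold change -1.06, SE 0.18, adjusted *p* = 0.00228), a call lost under quantile normalization (log2 fold change -0.32, adjusted *p* = 0.174). The H146 levels were lower, at 5.22, 5.32 and 4.40 TPM without and 2.61, 3.88, 3.55 and 2.75 TPM with drug (log2 fold change -0.52, SE 0.18, adjusted *p* = 0.0398). The groups of both genes were apart in both lines, but the H146 call of *FGFR2* was lost in 6 of 7 fits with 1 library left out, the exception being treated library 2 (highest adjusted *p* 0.13).

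*FGFR1* was high in H146 and low in H82. In H82 it ranged from 0.68 to 1.31 TPM without and from 2.41 to 3.36 TPM with drug (log2 fold change 0.98, SE 0.22, adjusted *p* = 0.00726), and the call was lost without untreated library 1 or 3 (highest adjusted *p* 0.0644). Its highest H82 value was in treated library 2. In untreated H146 it ranged from 188 to 219 TPM, and treated libraries 1 and 2, at 287 and 387 TPM, lay above this range while libraries 3 and 4, at 158 and 139.9 TPM, lay below it. *FGFR4* did not pass the threshold in either line (log2 fold change 0.26 in H82 and 0.02 in H146), although with the median of ratios it was higher in H82 by 0.73 (adjusted *p* = 0.013).

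*FGF2*, a secreted ligand of these receptors, rose from 0.538 to 1.11 TPM in untreated to 1.74 to 2.54 TPM in treated H82 (log2 fold change 0.80, adjusted *p* = 0.0156, lost without any 1 of the untreated libraries, highest adjusted *p* 0.129). *FGF9*, another secreted ligand, ranged from 1.02 to 1.13 TPM in untreated and from 0.307 to 0.587 TPM in treated H146 (log2 fold change -0.48, adjusted *p* = 0.0417, lost without treated library 1, 3 or 4, highest adjusted *p* 0.0931). *FGF12*, *FGF13* and *FGF14* belong to the FGF homologous factors, which stay inside the cell and bind sodium channels. *FGF12* was at 18.3, 18.9 and 19.8 TPM in untreated and 8.17, 8.98 and 8.74 TPM in treated H82 (log2 fold change -1.06, SE 0.14, adjusted *p* = 0.000994). *FGF12* in H146 was at 18.5, 18.2 and 17.9 TPM without and at 25.6, 25.4, 33.2 and 37.8 TPM with drug (log2 fold change 0.69, SE 0.16, adjusted *p* = 0.00882). The lines thus began at like levels of *FGF12*, and every treated library of H82 was below and every treated library of H146 above its untreated group. With the median of ratios the H146 rise was 0.39 (adjusted *p* = 0.0527). *FGF13* in H82 ranged from 3.04 to 3.42 TPM without and 1.34 to 2.26 TPM with drug and fell by 0.60 on the log2 scale (adjusted *p* = 0.0403), a call lost without any 1 of the libraries except treated library 1 (highest adjusted *p* 0.153) and turned to 0.42 by quantile normalization, and *FGF14* did not pass the threshold in H146 (log2 fold change 0.16).

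*INSR*, the receptor of insulin and of IGF2, had the clearest opposite response. It was at 36.0, 37.2 and 34.7 TPM in untreated and 12.5, 12.3 and 14.7 TPM in treated H82, a 2.74-fold lower mean (log2 fold change -1.39, SE 0.14, adjusted *p* = 0.000356). *INSR* in H146 was at 3.82, 3.99 and 2.97 TPM without and 9.42, 7.36, 9.53 and 9.99 TPM with drug, a 2.53-fold higher mean (log2 fold change 1.13, SE 0.17, adjusted *p* = 0.0011). In both lines the groups were far apart, and under drug the levels of the lines were closer than without it. The *INSR* window printed above held 4 GC boxes and no E-box letters.

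*KIT* and its ligand *KITLG*, stem cell factor, were both higher in treated H146. *KIT* was at 14.1, 16.3 and 9.57 TPM without and 23.0, 20.4, 18.3 and 18.2 TPM with drug (log2 fold change 0.57, SE 0.19, adjusted *p* = 0.0347), and *KITLG* was at 30.1, 29.8 and 23.5 TPM without and 37.9, 41.7, 39.5 and 43.3 TPM with drug (log2 fold change 0.54, SE 0.13, adjusted *p* = 0.00935). The call of *KIT* was lost without untreated library 1 or 3 or treated library 1 or 3 (highest adjusted *p* 0.109), and with the median of ratios neither passed the threshold (log2 fold changes 0.27 and 0.23, adjusted *p* = 0.236 and 0.123). In H82 *KIT* was listed at 0 in untreated libraries and was at 0.279, 3.29 and 0.115 TPM in treated libraries, and *KITLG* did not pass the threshold (log2 fold change 0.65, SE 0.33, adjusted *p* = 0.133). Treated H82 library 2 held most of both, at 3.29 TPM of *KIT* and 4.92 TPM of *KITLG* against 1.66 and 1.77 TPM of *KITLG* in the other treated libraries.

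*MET*, the receptor of hepatocyte growth factor, rose in H82 from 0.136, 0.0737 and 0.0582 TPM to 1.44, 4.55 and 2.34 TPM. The mean was 31.1-fold higher and the log2 fold change on the log2(TPM + 1) scale was 1.71 (SE 0.31, adjusted *p* = 0.00316). Treated library 2 was again the highest, but the lowest treated library was also above all untreated ones, and without a treated library the gene fell below the filter. *MET* was at 17.7, 17.0 and 12.7 TPM in untreated and 11.9, 7.62, 15.4 and 15.9 TPM in treated H146, with overlap and no call (log2 fold change -0.33, SE 0.25, adjusted *p* = 0.31). *HGF*, its ligand, was at 2.11 to 2.60 TPM in untreated H146, at 4.77 and 7.70 TPM in treated libraries 1 and 2 and at 1.37 and 1.51 TPM in treated libraries 3 and 4, and the test was not passed (log2 fold change 0.29, adjusted *p* = 0.611).

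*RET*, the receptor for ligands of the GDNF family, was nearly lost in treated H146. It was at 10.1, 9.01 and 9.11 TPM without and 0.207, 0.354, 0.248 and 0.319 TPM with drug, a 33.4-fold lower mean (log2 fold change -3.02, SE 0.16, adjusted *p* = 7.28e-06). The 4 treated libraries lay close together, the ones that stood apart included. In H82 *RET* reached at most 0.12 TPM. *NTF3*, neurotrophin 3, the ligand of NTRK3, was at 10.5, 14.1 and 11.96 TPM in untreated and 2.97, 2.48, 1.47 and 2.81 TPM in treated H146, a 5.02-fold lower mean (log2 fold change -1.96, SE 0.21, adjusted *p* = 0.000231). *NTRK3* itself reached at most 0.156 TPM in any library. *NTRK2*, the receptor of BDNF, was at 0.939 to 1.53 TPM without and 1.75 to 4.86 TPM with drug in H146, with no overlap and no call (log2 fold change 0.78, SE 0.31, adjusted *p* = 0.0643), though it passed without treated library 3 or 4 (log2 fold changes 0.93 and 0.96, adjusted *p* = 0.0459 and 0.0315). *BDNF* did not pass either (log2 fold change 0.26, adjusted *p* = 0.395). In H82 the 4 genes of this family were below the filter.

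Of the PDGF family, the ligand *PDGFC* alone was called. It was at 3.28, 3.89 and 2.98 TPM in H146 without and 6.11, 6.19, 9.32 and 11.9 TPM with drug, a 2.48-fold higher mean (log2 fold change 1.06, SE 0.24, adjusted *p* = 0.00767), and in H82 it overlapped between groups (log2 fold change -0.11, SE 0.26, adjusted *p* = 0.737). The receptor *PDGFRA* was at 1.44 to 2.65 TPM in untreated H146, 1.61 and 0.864 TPM in treated libraries 1 and 2 and 4.66 and 5.10 TPM in treated libraries 3 and 4 (log2 fold change 0.29, adjusted *p* = 0.592), and *PDGFB* did not pass the threshold in H146 (log2 fold change 0.12, adjusted *p* = 0.611). *PDGFRB* and *PDGFA* were below the filter in both lines.

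The 3 VEGF ligands, which act on endothelial cells through the receptors *KDR*, *FLT1* and *FLT4*, moved in different ways. *VEGFA* was at 30.9, 31.2 and 34.1 TPM in untreated and 13.8, 10.2 and 8.37 TPM in treated H82, a 2.97-fold lower mean (log2 fold change -1.51, SE 0.20, adjusted *p* = 0.000849). The H146 libraries were at 54.3, 53.3 and 53.9 TPM without and 27.5, 32.5, 35.3 and 30.7 TPM with drug, a 1.71-fold lower mean (log2 fold change -0.76, SE 0.12, adjusted *p* = 0.00138). *VEGFC*, the ligand of FLT4, was at 0.598, 0.912 and 0.541 TPM in untreated and 7.22, 7.35, 16.4 and 15.3 TPM in treated H146, a 16.9-fold higher mean (log2 fold change 2.82, SE 0.31, adjusted *p* = 0.000262). All 4 treated libraries were above the untreated ones, with libraries 3 and 4 at the top. In H82 *VEGFC* stayed between 3.01 and 3.85 TPM in all libraries (log2 fold change 0.00, SE 0.18, adjusted *p* = 0.985). *VEGFB*, the ligand of FLT1 and the most abundant of the 51 genes in H82, was at 61.3, 54.2 and 57.9 TPM without and 93.8, 96.9 and 67.3 TPM with drug there (log2 fold change 0.55, SE 0.17, adjusted *p* = 0.0307), a call lost without any 1 of the untreated libraries or treated library 2 (highest adjusted *p* 0.117), and it did not pass in H146 (log2 fold change 0.06, adjusted *p* = 0.665). The 3 receptors were below the filter in both lines.

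*ALK*, a receptor of the nervous system, and *DDR2*, a collagen receptor, were the receptors that fell most in H82. *ALK* was at 19.1, 16.5 and 21.3 TPM in untreated and 0.60, 2.15 and 3.29 TPM in treated libraries, a 9.42-fold lower mean (log2 fold change -2.83, SE 0.36, adjusted *p* = 0.000801). *DDR2* was at 14.2, 17.2 and 13.9 TPM in untreated and 0.379, 0.401 and 0.761 TPM in treated libraries, a 29.4-fold lower mean (log2 fold change -3.42, SE 0.20, adjusted *p* = 0.000108). For both genes the highest treated library was far below the lowest untreated one. In H146 neither exceeded 0.60 TPM. *DDR1*, the other collagen receptor, was at 237, 259.9 and 237 TPM in untreated and 157, 209, 123 and 108 TPM in treated H146 (log2 fold change -0.76, SE 0.21, adjusted *p* = 0.0183). These groups did not overlap, and the call was lost without any 1 of the untreated libraries (highest adjusted *p* 0.0639). In H82 *DDR1* did not pass the threshold (log2 fold change -0.01, SE 0.22). *ROS1* reached at most 0.106 TPM in any library.

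The TAM receptors, which bind GAS6 and protein S and serve in the clearance of dying cells, did not pass the threshold in either line. *TYRO3* was at 13.2, 13.2 and 13.2 TPM in untreated and 11.2, 12.4 and 13.9 TPM in treated H82 (log2 fold change -0.08, SE 0.15, adjusted *p* = 0.688), and its response in H146 was 0.11 on the log2 scale (SE 0.13, adjusted *p* = 0.523). *MERTK* ranged more widely, from 1.54 to 9.79 TPM in treated H82 (log2 fold change -0.01, SE 0.51, adjusted *p* = 0.984) and from 5.32 to 11.4 TPM in treated H146 (log2 fold change -0.36, SE 0.24, adjusted *p* = 0.237), where it passed without treated library 2 (log2 fold change -0.54, adjusted *p* = 0.027). *AXL* was below the filter in H82 and did not pass in H146 (log2 fold change 0.42, SE 0.21, adjusted *p* = 0.132).

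**Figure D2:**
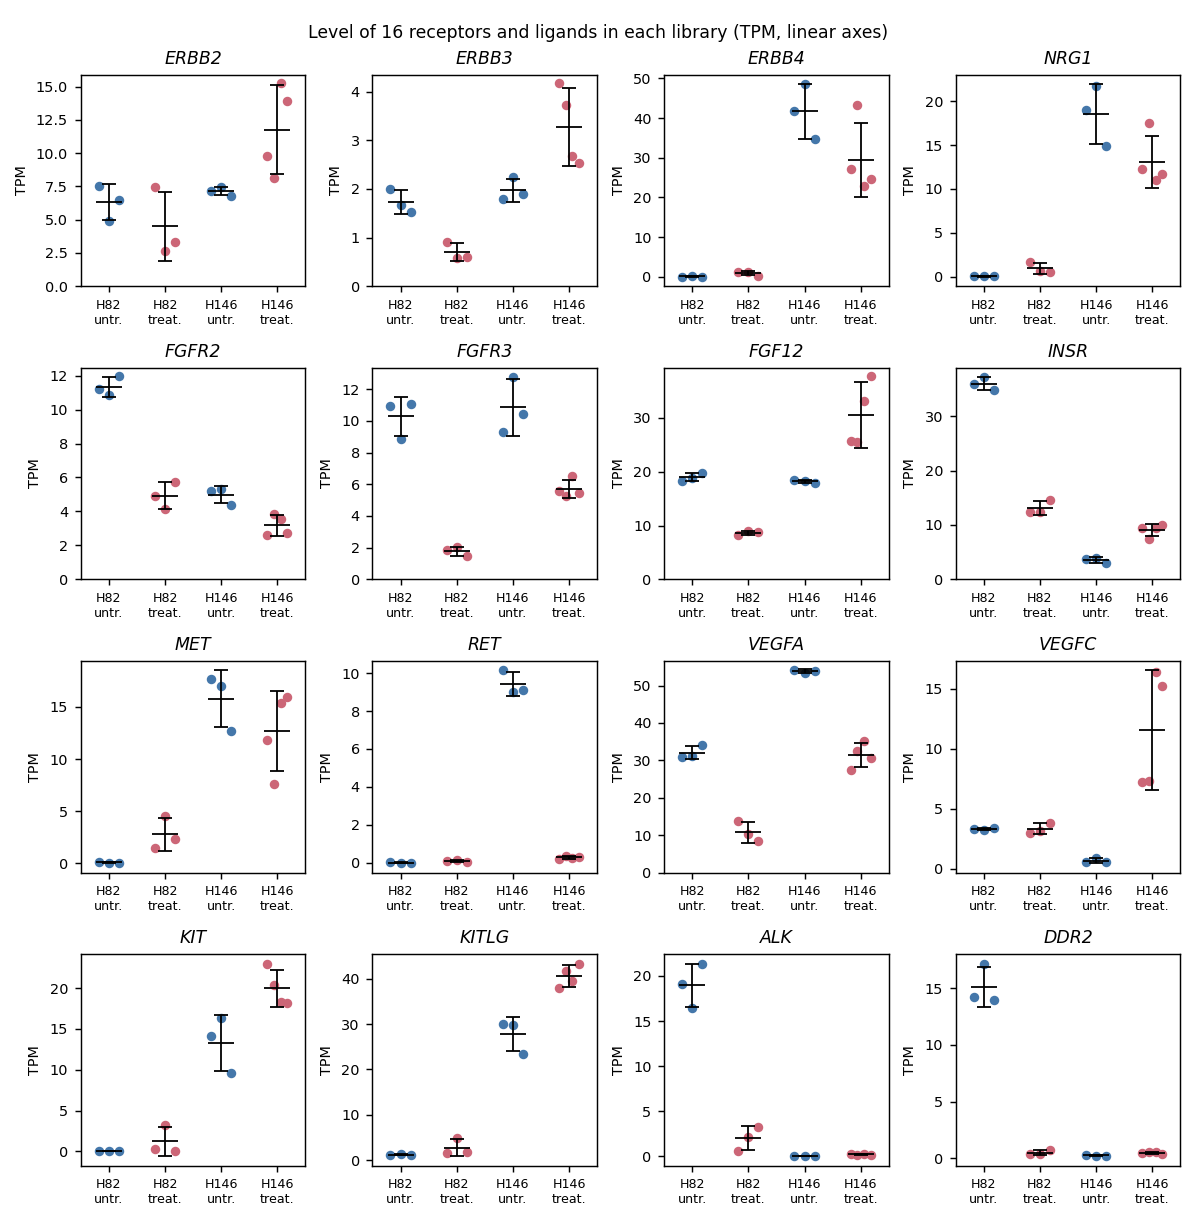
TPM (linear axes, 1 scale per gene) of 16 of the 51 genes in untreated (blue) and treated (red) libraries of H82 and H146. Each point is a library and the black marks are the mean and SD (n = 3, and n = 4 for treated H146). *INSR* and *FGF12* go down in H82 and up in H146, *FGFR2*, *FGFR3* and *VEGFA* go down in both, and *RET* falls to at most 0.354 TPM in treated H146.

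Of the 26 receptors and ligands below the filter in H82, 14 showed treated and untreated values apart from each other, against 23.6% of all genes below the filter with any value above 0. That share takes both directions together, and its division into higher and lower was not counted. Of the 14, 13 were higher with drug, but *EGFR*, *FGF9*, *KIT*, *PDGFRA* and *PDGFA* were at 0 in all untreated libraries and could only be higher. Besides *ERBB4*, *NRG1*, *KIT* and *EGFR*, the higher ones were the VEGF receptors *FLT1* and *FLT4*, the receptors *AXL*, *PDGFRA*, *PDGFRB*, *RET* and *NTRK3* and the ligands *FGF9* and *PDGFA*, and the lower one was the neuregulin *NRG4*. *FLT4* was at 0.0867, 0.117 and 0.208 TPM without and 0.958, 1.16 and 0.677 TPM with drug. *FLT1* was at 0.153, 0.31 and 0.0814 TPM without and 1.198, 0.53 and 0.832 TPM with drug. *AXL* was at 0.112, 0.201 and 0.0397 TPM without and 0.487, 0.35 and 0.643 TPM with drug. All are levels near or under 1 TPM. With 3 libraries against 3 the two-sided exact permutation test of the mean of log2(TPM + 1) cannot go below *p* = 0.1, which was the value for each of the 14. When all genes with any value were fitted with limma, *FLT4*, *NRG1* and *FLT1* passed the threshold (adjusted *p* = 0.0162, 0.0327 and 0.0478) and *ERBB4* did not (adjusted *p* = 0.0633).

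**Figure D3:**
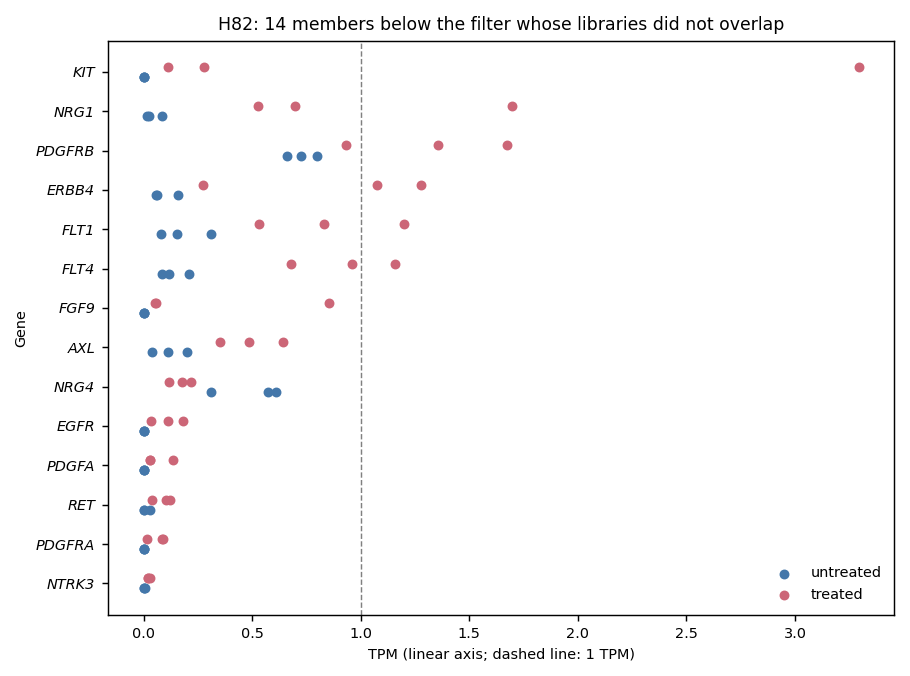
TPM (linear axis) in the 3 untreated (blue) and 3 treated (red) H82 libraries of the 14 genes that were below the filter and whose groups did not overlap. All but *NRG4* lie further right with drug, and most points lie left of the dashed line at 1 TPM, with *KIT* in treated library 2 at 3.29 TPM.

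In H146, 6 of the 19 genes below the filter had no overlap, against 14.9% of all such genes in either direction. All 6 were higher with drug, a direction for which no share over all genes was counted. They were *NRG2*, *NRG4*, *NTRK3*, *PDGFRB*, *ALK* and *DDR2*. *NRG4* was at 0.115, 0.114 and 0.0347 TPM without and 0.48, 0.529, 0.895 and 1.09 TPM with drug (two-sided exact permutation *p* = 0.0286, the smallest that 3 against 4 libraries can give). *NRG2*, which fell in H82, was at 0.0972 to 0.498 TPM in treated H146, still far below its treated H82 level. *DDR2*, which also fell in H82, was at 0.355 to 0.60 TPM in treated H146 and at 0.379 to 0.761 TPM in treated H82.

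The response of the lines was compared directly with the interaction of line and treatment over all 13 libraries, as the response of H146 minus that of H82. Of the 38 genes tested, 22 differed at an adjusted *p* under 0.05, 15 with the higher response in H146 and 7 with the lower one, where 46.5% of all 23676 genes tested were higher and 13.7% lower. Of the 22, 11 were tested in both lines, 9 of them with the higher and 2 with the lower response in H146. The other 11 were below the filter in 1 line and entered this fit through their level in the other. Where a gene was under 1 TPM in all libraries of 1 line, as *DDR2*, *ALK* and *EGF* were in H146 and *RET* was in H82, the difference largely repeats the change in the other line and is not read as a further result. *INSR* and *FGF12*, present in both lines, had differences of 2.52 (SE 0.21, adjusted *p* = 1.8e-06) and 1.75 (SE 0.21, adjusted *p* = 2.44e-05). *VEGFC* had a difference of 2.81 (SE 0.39, adjusted *p* = 6.95e-05). On the other side was *MET* at -2.04 (SE 0.42, adjusted *p* = 0.00126). *MET* and *ERBB3* in H82 and *VEGFC* in H146 counted as tested in that line through 1 group alone. The filter required them to differ there, although their level in the other line was enough to enter this fit. *FGFR3*, which fell in both lines, fell further in H82 (difference 1.21, SE 0.23, adjusted *p* = 0.00073), though with the median of ratios the adjusted *p* was 0.0517. *ERBB2*, *HBEGF* and *PDGFC* were not past the threshold either with the median of ratios (differences 0.40, 1.81 and 0.47, adjusted *p* = 0.428, 0.0779 and 0.269). The difference of *VEGFA* was 0.75 (adjusted *p* = 0.00965) and turned to -0.02 with the median of ratios. *FGFR2* did not differ at this threshold (difference 0.55, SE 0.24, adjusted *p* = 0.0643).

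**Figure D4:**
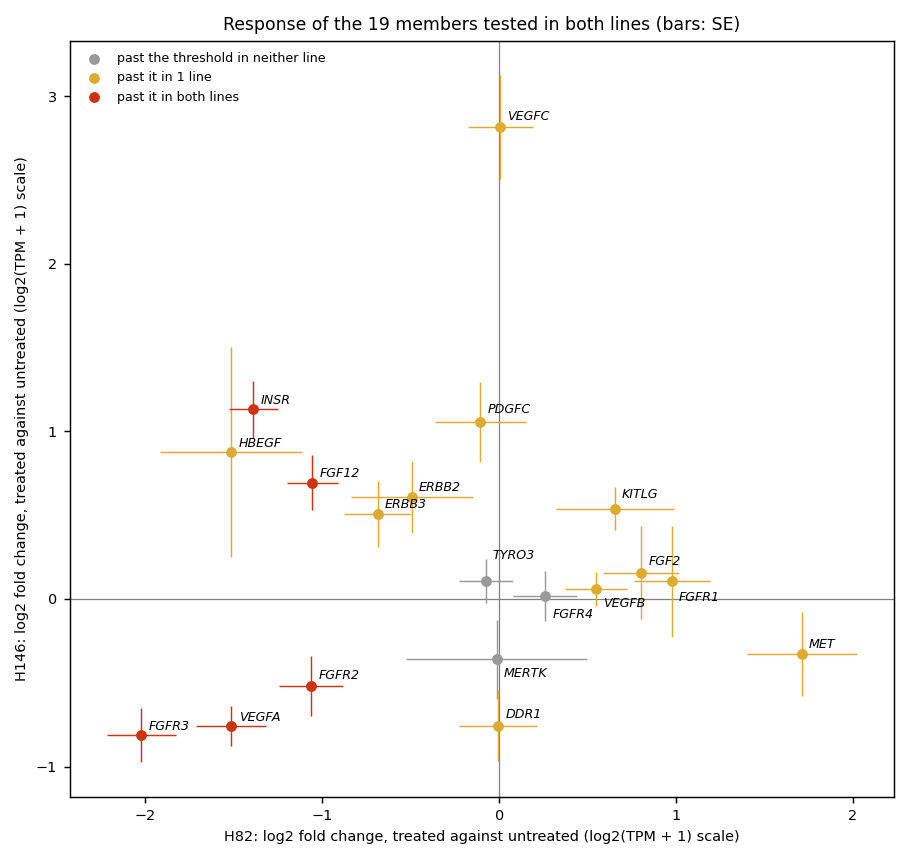
Log2 fold change of treated against untreated libraries in H82 (x axis) and H146 (y axis), on the log2(TPM + 1) scale with SE bars, for the 19 genes tested in both lines. Red points passed the threshold in both lines, with *INSR* and *FGF12* at the upper left and *FGFR2*, *FGFR3* and *VEGFA* at the lower left, and *VEGFC* stands alone at the top.

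Around the receptors, 94 further genes were grouped as partners (other ligands, co-receptors and ligand-shedding enzymes), adaptors with the kinases below them, outputs (genes switched on by ERK signalling, many of which feed back on it) and brakes. In H82, 68 were tested, of which 27 were lower and 12 higher, where 45.5% of all genes were lower and 13.1% higher. In H146, 85 were tested, of which 11 were lower and 38 higher, where 15.5% of all genes were lower and 32.5% higher. Scaled by the median of ratios, the counts became 15 lower and 17 higher in H82 and 21 lower and 30 higher in H146. The median log2 fold change of those tested was -0.43 in H82 and 0.40 in H146. Some of these genes also reached 1 TPM in 1 group alone, and how many did was not counted for these lists. Without untreated H82 library 1, 2 or 3 the calls in H82 fell from 39 to 24, 25 and 25.

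Of the adaptors, 15 of 30 tested were lower and 2 higher in H82, where 45.5% of all genes were lower and 13.1% higher. In H146, 3 of 31 were lower and 15 higher, where 15.5% of all genes were lower and 32.5% higher. After the median-of-ratios step these counts were 7 and 6 in H82 and 8 and 13 in H146. *BRAF*, a kinase of the ERK cascade, was at 15.0 ± 1.18 TPM without and 4.17 ± 0.27 TPM with drug in H82 (SD, n = 3), a log2 fold change of -1.63 (adjusted *p* = 0.000352), and *HRAS* was at 47.9 ± 8.47 TPM without and 105 ± 47.0 TPM with drug (log2 fold change 1.01, adjusted *p* = 0.0496). In H146 *SHC2*, an adaptor of neuronal cells, fell from 97.0 ± 4.99 to 18.7 ± 7.98 TPM (SD, n = 3 and 4, log2 fold change -2.40, adjusted *p* = 0.000416), and *PIK3R3*, a regulatory subunit of PI3 kinase, was at 5.26 ± 1.59 TPM without and 18.2 ± 6.84 TPM with drug (log2 fold change 1.56, adjusted *p* = 0.005).

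Of the outputs, 6 of 14 tested were higher and 3 lower in H82, where 13.1% of all genes were higher and 45.5% lower. In H146, 11 of 19 were higher and 3 lower, where 32.5% of all genes were higher and 15.5% lower. Scaled by the median of ratios, 7 were higher and 2 lower in H82, and 7 were higher and 4 lower in H146. In H82 the higher *CCND1*, *FOSL1* and *DUSP4* reached 1 TPM in treated libraries alone, and the lower *SPRED3* in untreated libraries alone. The filter itself required these genes to differ, so that their H82 calls add no support. *ETV4* and *ETV5*, also called higher there, had untreated means of 0.884 and 0.824 TPM. *CCND1*, cyclin D1, went up in H82, with 0.332 ± 0.0811 TPM without and 12.2 ± 6.93 TPM with drug (SD, n = 3, log2 fold change 3.13, adjusted *p* = 0.00128), and *DUSP5*, a phosphatase of ERK, fell from 86.1 ± 1.12 to 29.1 ± 13.8 TPM (log2 fold change -1.67, adjusted *p* = 0.00792). *CCND1* also rose in H146 (log2 fold change 0.80, adjusted *p* = 0.00737) and *DUSP5* also fell there (-1.32, adjusted *p* = 0.00249). In H146 the feedback inhibitor *SPRY1* rose from 8.20 ± 1.197 to 37.4 ± 7.47 TPM (log2 fold change 2.05, adjusted *p* = 7.7e-05), while the phosphatase *DUSP4* fell from 109.6 ± 4.25 to 21.8 ± 9.47 TPM (log2 fold change -2.36, adjusted *p* = 0.000299). *SPRY1* also rose in H82 (log2 fold change 0.91, adjusted *p* = 0.0125), and *DUSP4* rose there (0.78, adjusted *p* = 0.0197).

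Of the partners, 4 of 14 tested were lower and 3 higher in H82, and 2 of 23 were lower and 9 higher in H146. Over all genes tested, 45.5% were lower and 13.1% higher in H82, and 15.5% were lower and 32.5% higher in H146. With the median of ratios, 2 partners were lower and 3 higher in H82, and 5 were lower and 8 higher in H146. The RET ligand *ARTN*, artemin, fell in H146 from 52.8 ± 11.0 to 10.9 ± 1.27 TPM (log2 fold change -2.16, adjusted *p* = 5e-05) and in H82 from 5.89 ± 0.779 to 2.12 ± 1.40 TPM (log2 fold change -1.23, adjusted *p* = 0.016), a call lost with the median of ratios (adjusted *p* = 0.0812). Its co-receptor *GFRA3*, named outside the rule after its values were seen, rose in H146 from 8.74 ± 1.43 to 52.8 ± 7.90 TPM (log2 fold change 2.46, adjusted *p* = 2.2e-05), and *MDK*, midkine, a heparin-binding growth factor, rose from 35.8 ± 2.80 to 223 ± 48.6 TPM (log2 fold change 2.59, adjusted *p* = 2.5e-05). In H82 the RET family ligand *NRTN* was at 7.91 ± 0.416 TPM without and 31.1 ± 23.8 TPM with drug (log2 fold change 1.60, adjusted *p* = 0.0216), and the neurotrophin co-receptor *NGFR* fell from 5.76 ± 1.54 to 1.08 ± 0.667 TPM (log2 fold change -1.72, adjusted *p* = 0.0027). *NGFR* rose in H146 from 0.367 ± 0.0649 to 2.40 ± 1.51 TPM (log2 fold change 1.23, adjusted *p* = 0.00977). It passed the filter there through treated libraries alone, so that this call adds no support. Of the brakes, 5 of 10 tested were lower and 1 higher in H82, and 3 of 12 were lower and 3 higher in H146. The shares over all genes are those given for the partners. With the median of ratios, 4 brakes were lower and 1 higher in H82, and 4 were lower and 2 higher in H146. *CBL*, which marks active receptors for degradation, fell in H82 from 24.2 ± 0.0703 to 6.73 ± 0.539 TPM (log2 fold change -1.71, adjusted *p* = 0.000219) and rose in H146 from 17.5 ± 3.88 to 33.8 ± 2.00 TPM (log2 fold change 0.94, adjusted *p* = 0.0023). *SH2B3*, an inhibitor of KIT and cytokine receptor signalling, fell in H146 from 30.6 ± 5.30 to 7.30 ± 0.968 TPM (log2 fold change -1.92, adjusted *p* = 8.9e-05), and *LRIG3* rose in H82 from 7.93 ± 0.0959 to 13.5 ± 2.63 TPM (log2 fold change 0.69, adjusted *p* = 0.0176). *SH2B3* also fell in H82 (log2 fold change -1.70, adjusted *p* = 0.00333), whereas *LRIG3* fell in H146 (-0.61, adjusted *p* = 0.0113).

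**Figure D5:**
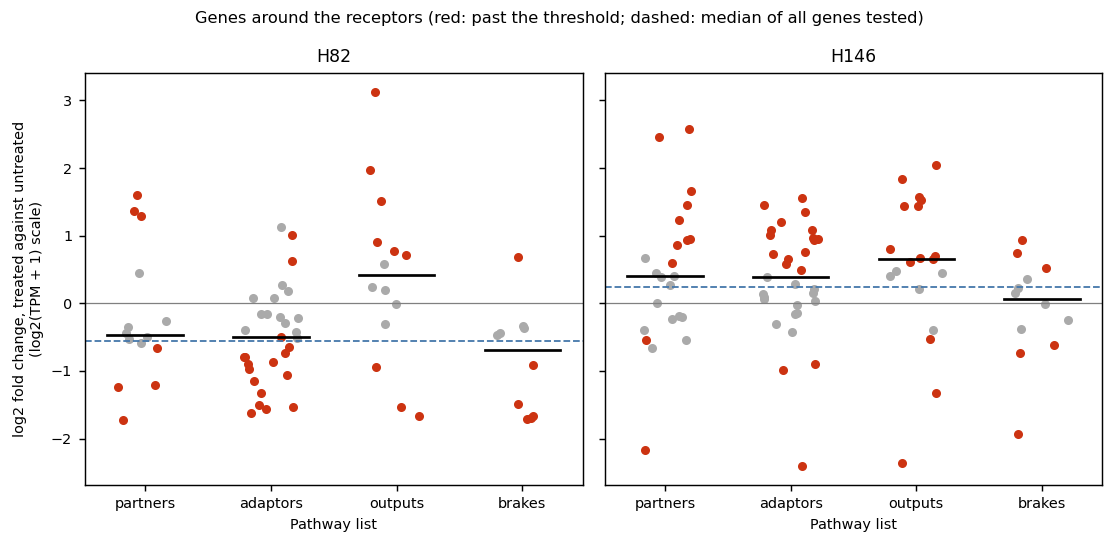
Log2 fold change (log2(TPM + 1) scale) of the genes around the receptors in H82 (left) and H146 (right), by list. Each point is a gene, red when past the threshold, the black line is the median of the list and the dashed line the median of all genes tested (-0.56 in H82 and 0.25 in H146). The outputs lie above the dashed line by their median in both lines, at 0.41 in H82 and 0.65 in H146. In H82 the outputs *CCND1*, *FOSL1* and *DUSP4* passed the filter through treated libraries alone, and *SPRED3* through untreated libraries alone.

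Of the 51 genes, 14 have an exon that overlaps a gene on the opposite strand, among them *EGFR*, *ERBB2*, *NRG2*, *FGFR1*, *FGF2*, *KITLG*, *VEGFA*, *ALK* and *AXL*. Whether reads were counted by strand is not given in the sources used here, so that reads of such genes and of their antisense partners cannot be told apart.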

How the data were processed

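RNA was sequenced from H82 and H146 cells without and with FHD-286. Per the labels and the study's methods, the authors trimmed reads with Trim Galore 0.4.4, aligned them to hg38 with STAR, counted them with GENCODE release 28, used DESeq2, and deposited TPM values. How gene length was taken is not given in the sources used here, and the number of reads is unknown. Columns were assigned to groups by the sample titles.

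Each line was fitted on log2(TPM + 1) with limma 3.58.1 in R 4.3.3 (lmFit, eBayes with trend) over the genes reaching 1 TPM in 3 or more libraries. *P* values were two-sided, were adjusted by Benjamini and Hochberg's procedure across every gene in the fit and were judged at 0.05. Lines were compared by an interaction, and genes below the filter by exact permutation tests. The fits were tested on simulated data.

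The rule for the 51 genes names them by symbol and uses no measured value, but they and the pathway lists were chosen with earlier results of these data known. Values in every library were given for the ERBB receptors and *NRG1*, and for up to 3 genes per family and line that passed the threshold without overlap at a mean of at least 2 TPM, and the largest rise and fall of each pathway list were named. *TYRO3*, genes whose treated H146 libraries split and genes below the filter were described further after their values were seen. Alternatives were a pseudocount of 0.1, no filter, scaling by the median of ratios or by quantiles, removal of mitochondrially encoded genes, a replicate block, eBayes with no trend and each library left out. Leaving out pairs of treated H146 libraries, a ratio of means with nothing added and the spread per line were added after the data had been seen.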

Additional observations from a re-analysis of the deposited data

Results flagged for a closer look

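Of the 38 receptors and ligands for which the lines were compared, 22 were noted because the response to FHD-286 differed between H146 and H82 by the interaction test in limma (adjusted *p* under 0.05). The values are the log2 fold change in H146 minus that in H82. The difference was positive for 15 genes. Among the ERBB genes these were *ERBB2* (1.10), *ERBB3* (1.19), *EGF* (2.17), *HBEGF* (2.39), *NRG2* (1.39) and *NRG3* (0.84). Among the FGF genes they were *FGFR3* (1.21), *FGF12* (1.75) and *FGF13* (0.71), and the others were *INSR* (2.52), *PDGFC* (1.17), *VEGFA* (0.75), *VEGFC* (2.81), *ALK* (3.03) and *DDR2* (3.65). It was negative for *ERBB4* (-1.25), *NRG1* (-1.35), *FGF9* (-0.83), *MET* (-2.04), *RET* (-3.13), *NTF3* (-2.08) and *VEGFB* (-0.49). For *EGF*, *NRG2*, *NRG3*, *FGF13*, *ALK* and *DDR2* the gene was below the filter in H146, and for *ERBB4*, *NRG1*, *FGF9*, *RET* and *NTF3* it was below the filter in H82. These 11 entered the comparison through their level in 1 line, and where the other line had almost no transcript the difference largely repeats the change already given. With each of the 13 libraries left out in turn, the difference of *ERBB2* was lost in 9 fits (highest adjusted *p* 0.0885), that of *VEGFB* in 11 (0.102), that of *HBEGF* in 5 (0.0664) and that of *NRG3* in 1, without untreated H82 library 3 (0.0575), and the other 18 passed in all of these fits that could be made. With the median of ratios 7 of the 22 were lost, namely *ERBB2* (0.40, adjusted *p* = 0.428), *HBEGF* (1.81, 0.0779), *NRG3* (0.52, 0.165), *FGFR3* (0.56, 0.0517), *FGF13* (0.30, 0.266), *PDGFC* (0.47, 0.269) and *VEGFA* (-0.02, 0.942). Of the 32 genes tested in H146, none had a treated library far enough from the other 3 to be noted by Dixon's ratio. The splits of *HBEGF*, *FGFR1*, *FGF2*, *HGF* and *PDGFRA*, among others, run between treated libraries 1 and 2 and treated libraries 3 and 4.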

How the results depend on the processing

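TPM carry no depth, so that the spread between 3 or 4 libraries set the precision, and values near 1 TPM are the least certain. Under quantile normalization 8 receptors and ligands were lower and 10 higher in H82. With the median of ratios 3 were higher in H146. Without treated H146 libraries 1 and 2, 12 were lower, and without treated libraries 3 and 4, 11 were higher. With the spread estimated per line, where only genes tested in both lines could be fitted, 11 differed between the lines.

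With 1 library left out, the calls in H82 ranged from 8 to 17 (7 to 14 lower, 1 to 3 higher) and in H146 from 8 to 17 (3 to 10 lower, 5 to 8 higher). Genes that differed between the lines ranged from 16 to 25. The H82 calls comprised 5 to 8 receptors and 3 to 9 ligands and FGF homologous factors, and the H146 calls 2 to 9 and 6 to 8. In the separate pathway lists 24 to 44 genes were called in H82 and 39 to 54 in H146.

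The direction turned as follows, and the cause was not tested. Under quantile normalization the log2 fold change in H82 was 0.26 for *ERBB3*, 0.24 for *NRG3*, 0.42 for *FGF13*, 0.78 for *PDGFC*, 0.48 for *TYRO3* and 0.59 for *DDR1*. The difference between the lines was then -0.11 for *ERBB2*, -0.054 for *ERBB3*, -0.22 for *NRG3*, -0.49 for *FGF13*, -0.068 for *PDGFC*, -0.72 for *AXL* and -0.62 for *TYRO3*. With the median of ratios it was -0.022 for *VEGFA* and -0.56 for *TYRO3*. Without treated H146 libraries 1 and 2, *FGFR1* was at -0.47 and *HGF* at -0.48.

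The deviations of same-numbered treated and untreated libraries from their group means correlated at -0.111 to 0.027. The labels share a number and do not say whether such libraries were grown or prepared together. With the replicate number as a block, 14 receptors and ligands were called in H82 and 10 in H146, and 21 differed between the lines.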
